A study of Mus musculus with 14 samples.

Results

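Transcripts of 10 regulators of odorant receptor (OR) gene choice were measured in the olfactory epithelium of newborn mice. Some of the mice had undergone either of 2 manipulations meant to change the activity of olfactory sensory neurons (OSNs), and the others were their controls. The regulators are Lhx2, Ldb1, Ebf1, Ebf2, Ebf3, Ebf4, Emx2, Lbr, Kdm1a and Atf5. They are a named list, taken by gene symbol from 51211 symbols in each of the 2 deposited tables, and all 10 were found in both. All 10 passed the filter on low values described below and were tested beside 19807 genes in all in the Kir2.1 experiment and 17322 in the PEA experiment.

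All 14 mice were taken at P5. The Kir2.1 experiment compared 3 Kir2.1 mice (OMP-IRES-tTA together with tetO-Kir2.1-IRES-tauLacZ) with 3 control littermates heterozygous for OMP-IRES-tTA, so both groups carried the tTA driver. That driver sits at the Omp locus, which is used by mature OSNs, and the tetO transgene makes the inward rectifier potassium channel Kir2.1 in them to silence spontaneous activity. The sample records call these mice Kir2.1-off, a name that elsewhere in the study stands for animals later given doxycycline, so the shorter name Kir2.1 mice is used here. The PEA experiment compared 4 wild-type mice exposed to 2-phenylethylamine (PEA), an odor that adult mice avoid, from P0 to P5 with 4 unexposed wild-type mice. The records give C57BL/6 as the strain throughout and the study's methods give CD-1 for PEA exposure.

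Each OSN transcribes a single allele of a single OR gene, and the regulators studied here act at successive steps of that choice. Silent OR genes lie packed in heterochromatin in the nucleus of the neuron, which loses the nuclear envelope protein Lbr as it develops. Lhx2 and the Ebf proteins bind OR enhancers and promoters, and Ldb1, recruited by Lhx2, holds enhancers of different chromosomes together at the active gene. The demethylase Kdm1a (also called Lsd1) opens the chosen gene, and the OR protein then signals back through the endoplasmic reticulum to Atf5, whose translation leads to the loss of Kdm1a and fixes the choice. Atf5 is controlled in large part at translation in this feedback, a step that RNA levels do not measure.

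The deposited values are gene-level read estimates that the authors scaled between mice, called normalized counts here. From the value worth a single read in each library, the Kir2.1 experiment was estimated at 32.5 to 35.4 reads per mouse in units of 1000000, and the PEA experiment at 9.77 to 15.1. The Kir2.1 libraries did not keep strand but were quantified with a setting for reverse-stranded reads, and whether part of their reads was left out cannot be told from these values. Differences are given as log2 fold changes of (normalized count + 1), treated mice against control mice, with adjusted p from limma and Benjamini-Hochberg correction over all genes tested. A gene was called changed at an adjusted p under 0.05. Kcnj2, which encodes Kir2.1, ranged from 986 to 1274 in controls and from 17926 to 24193 in Kir2.1 mice. The markers of mature OSNs were present in every mouse, with 10 of 10 listed markers tested in both experiments. Some libraries stood apart by vomeronasal receptor genes, whose mean log2 value was 6.06 in Kir2.1 control mouse 1 and 2.35 to 2.45 in the other mice of that experiment, and ranged from 1.38 to 5.77 in the PEA experiment.

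No regulator was called changed in either experiment. In the Kir2.1 experiment 0 of 10 passed the adjusted threshold, against 70 genes or 0.353% of all genes tested, and 0 of 10 had an unadjusted p under 0.05, against 11.1% of all genes. In the PEA experiment 0 of 10 passed, against 31 genes or 0.179%, and 2 of 10, Ldb1 and Emx2, had an unadjusted p under 0.05, against 15% of all genes. The study's own DESeq2 test called more genes in both experiments at this adjusted threshold than the limma test used here. The exact permutation test of each regulator alone could not go below 0.1 with 3 mice against 3 or below 0.0286 with 4 against 4. The median log2 fold change of the 10 regulators was -0.10 in the Kir2.1 experiment and -0.06 in the PEA experiment, beside 0.01 and -0.02 over all genes tested. Their median size without regard to sign was 0.10 and 0.12, near the 0.09 and 0.15 of genes averaging 200 or more normalized counts. These libraries come from whole tissue, so fewer cells of a type and less RNA per cell cannot be told apart in any value below. The study proposes that PEA exposure affects only the small subset of OSNs with receptors for PEA. A change confined to those neurons could be too small to be seen in whole tissue.

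**Figure D1:**
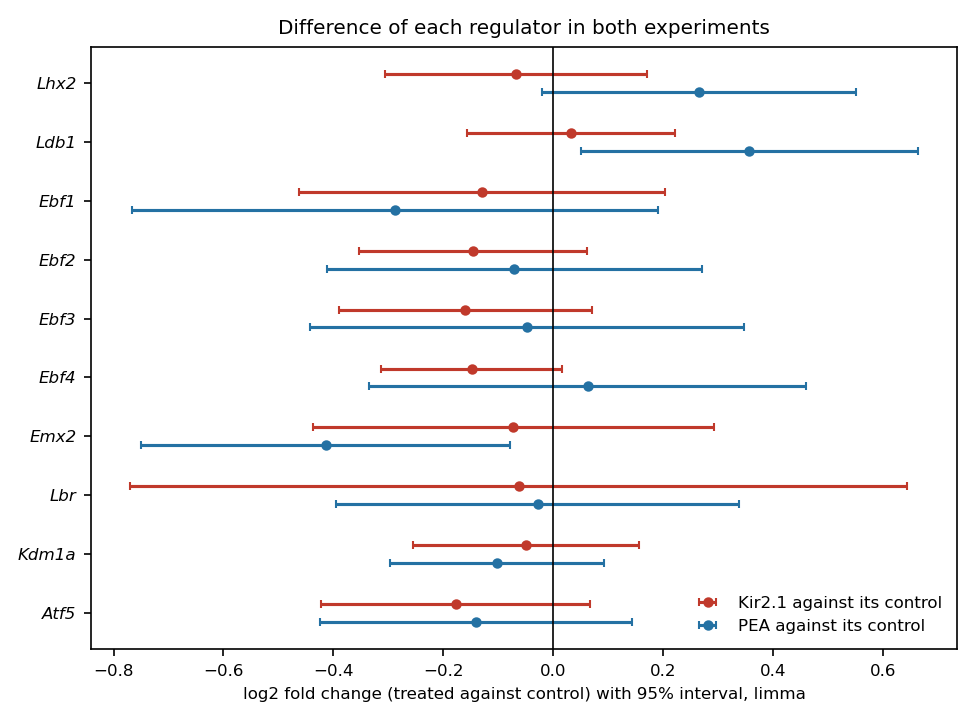
Log2 fold change of each regulator (x axis, treated against control) with its 95% limma interval, in the Kir2.1 experiment (red, 3 mice against 3) and the PEA experiment (blue, 4 mice against 4). Every Kir2.1 interval includes 0, and in the PEA experiment only the unadjusted intervals of Ldb1 (0.05 to 0.66) and Emx2 (-0.75 to -0.08) lie to one side of it.

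Lhx2 (ENSMUSG00000000247, GRCm38 chromosome 2, 38339281 to 38369733, plus strand, 5 exons) is a LIM-homeodomain factor needed for the expression of most OR genes. Its normalized counts were 12579, 14401 and 14076 in the control mice and 12466, 11966 and 14861 in the Kir2.1 mice, so the highest and the lowest value both belonged to Kir2.1 mice. The log2 fold change was -0.07 (SE 0.10, interval -0.31 to 0.17, limma adjusted p = 0.879). Among the PEA mice the controls had 812, 1052, 946 and 821 and the exposed mice 1032, 1325, 1049 and 965. Only control mouse 2 reached the range of the exposed mice, whose log2 fold change was 0.27 (SE 0.13, interval -0.02 to 0.55, limma adjusted p = 0.365). The exact permutation test of the same difference gave p = 0.1143, two-sided.

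Ldb1 (ENSMUSG00000025223, chromosome 19, 46031570 to 46045214, minus strand, 11 exons) encodes the LIM-domain binding protein that bridges Lhx2 molecules. In the Kir2.1 experiment its counts were 7662, 7678 and 7052 in controls and 7334, 7242 and 8361 in Kir2.1 mice. It was the single regulator with a log2 fold change above 0 there, at 0.03 (SE 0.08, interval -0.16 to 0.22, limma adjusted p = 0.935), and the sign turned to -0.01 when each mouse was centred on its median gene. Controls of the PEA experiment had 722, 829, 758 and 869 and the exposed mice 1054, 1304, 871 and 888. The groups did not overlap, although the lowest exposed mouse stood just above the highest control. The log2 fold change was 0.36 (SE 0.14, interval 0.05 to 0.66), with a limma adjusted p = 0.270 and an exact permutation p = 0.0286, the smallest that 4 mice against 4 can give. Among all genes tested in the PEA experiment 9.32% likewise had groups that did not overlap, and Ldb1 was 1 of 10 regulators to do so. Without PEA mouse 2, the mouse with the highest count, the log2 fold change was 0.24 (limma adjusted p = 0.486).

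Lhx2 and Ldb1 were also set against each other within each mouse, since their proteins work in a complex. Per kilobase of exon, the ratio of Lhx2 to Ldb1 was 1.93 ± 0.189 (SD, n = 3) in the controls and 1.79 ± 0.066 in the Kir2.1 mice (exact permutation p = 0.4, two-sided). The PEA controls had a ratio of 1.20 ± 0.156 (SD, n = 4) and the exposed mice of 1.12 ± 0.104 (exact permutation p = 0.4857). Neither difference exceeded the spread between mice. The PEA fold changes of both genes had the same sign, and their ratio differed less than either gene alone.

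Ebf1 (ENSMUSG00000057098, chromosome 11, 44617317 to 45008091, plus strand, 16 exons), Ebf2 (ENSMUSG00000022053, chromosome 14, 67233292 to 67430918, plus strand, 17 exons), Ebf3 (ENSMUSG00000010476, chromosome 7, 137193673 to 137314445, minus strand, 16 exons) and Ebf4 (ENSMUSG00000053552, chromosome 2, 130295169 to 130370481, plus strand, 18 exons) form the Ebf family, first known in this tissue as the Olf-1 or O/E factors that bind OSN gene promoters. Their products recognise closely related sites, and loss of a single member can be covered in part by the others.

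All 4 Ebf genes had means below control in the Kir2.1 experiment, by amounts that did not pass the test. Ebf4 came nearest, with 2436, 2559 and 2653 in the controls and 2283, 2207 and 2410 in the Kir2.1 mice. All 3 Kir2.1 mice lay under all 3 controls, and Ebf4 was 1 of 10 regulators whose groups did not overlap, against 16.3% of all genes tested. Its log2 fold change was -0.15 (SE 0.07, interval -0.31 to 0.02, limma adjusted p = 0.508). Ebf2 had 15883, 17367 and 15168 in the controls and 13410, 14551 and 15850 in the Kir2.1 mice, with Kir2.1 mouse 3 inside the control range (difference -0.15 on the log2 scale with an SE of 0.09, limma adjusted p = 0.630).

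Kir2.1 mouse 3 was also the highest of its group for Ebf3 and Ebf1. Ebf3 had 13938, 15227 and 14792 in the controls and 11851, 12698 and 14972 in the Kir2.1 mice (difference -0.16 on the log2 scale with an SE of 0.10, limma adjusted p = 0.633). Ebf1 had 10514, 10147 and 11520 in the controls and 8235, 9361 and 12182 in the Kir2.1 mice (difference -0.13 on the log2 scale with an SE of 0.14, limma adjusted p = 0.821). For both genes the first 2 Kir2.1 mice lay under every control and mouse 3 within or above their range.

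After PEA exposure the Ebf genes spread widely within each group, and no pair of groups separated. Ebf1 had 3171, 4130, 3700 and 2896 in the controls and 2285, 4318, 3094 and 2072 in the exposed mice, where PEA mouse 2 was the highest of all 8 (difference -0.29 on the log2 scale with an SE of 0.22, limma adjusted p = 0.568). Without PEA mouse 2 the Ebf1 difference was -0.49 (limma adjusted p = 0.337). Ebf2 ranged from 3763 to 6209 in controls and from 4298 to 5025 in exposed mice (-0.07, SE 0.15, limma adjusted p = 0.869). Ebf3 ranged from 1665 to 2876 and from 1862 to 2616 (-0.05, SE 0.18, limma adjusted p = 0.927). Ebf4 ranged from 299 to 486 and from 319 to 482 (0.06, SE 0.18, limma adjusted p = 0.902). With 4 mice a group, the intervals of Ebf2, Ebf3 and Ebf4 reached from -0.44 at the lowest to 0.46 at the highest, the changes that these mice did not exclude before adjustment.

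The makeup of the family within a mouse was measured as the share of each gene in the summed level per kilobase of exon. These shares depend on the length used. In the controls of the Kir2.1 experiment Ebf2 made up 40.1% (37.8% to 41.9%, n = 3), Ebf3 27.3% ± 0.467 (SD), Ebf1 19.0% ± 1.51 and Ebf4 13.6% ± 0.507. The Kir2.1 mice had 40.1% ± 1.21, 27.1% ± 0.333, 19.2% ± 1.77 and 13.6% ± 1.11 in the same order, and no difference in share exceeded the spread between mice (exact permutation p between 0.6 and 1.0). The PEA controls had 50.4% ± 4.45 (SD, n = 4) for Ebf2, 16.6% ± 1.23 for Ebf3, 25.1% ± 4.58 for Ebf1 and 7.86% ± 0.763 for Ebf4. The exposed mice had 8.81% ± 0.591 for Ebf4, which gave the smallest exact permutation p of these shares in the PEA experiment, 0.0857. Ebf2 had the largest mean share in both experiments and Ebf4 the smallest.

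Emx2 (ENSMUSG00000043969, chromosome 19, 59458372 to 59465357, plus strand, 3 exons) is a homeodomain factor that many OR genes need for full expression. Its counts in the Kir2.1 experiment were 3052, 3193 and 2628 in the controls and 2428, 2548 and 3561 in the Kir2.1 mice, with mouse 3 the highest of all 6 (difference -0.07 on the log2 scale with an SE of 0.16, limma adjusted p = 0.924). Unexposed controls had 373, 357, 365 and 293 in the PEA experiment and the exposed mice 314, 279, 203 and 253. Control mouse 4 lay within the range of the exposed mice and the other controls above it. The log2 fold change was -0.41 (SE 0.15, interval -0.75 to -0.08), with a limma adjusted p = 0.245 and an exact permutation p = 0.0571. This was the smallest limma p of any regulator in either experiment, and it did not pass the adjusted threshold.

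The vomeronasal receptor genes differed between the same PEA mice. Their mean log2 value over 126 Vmn1r and Vmn2r genes was 5.77, 4.68, 3.91 and 1.38 in the controls and 5.33, 1.66, 1.38 and 1.38 in the exposed mice. The 4 mice with a mean under 3, control 4 and PEA mice 2, 3 and 4, were also those with the 4 lowest Emx2 counts. Of these 126 genes 3 had a mean above control, and their summed count lay between 491 and 8441 in the controls and between 428 and 6205 in the exposed mice. With that mean as a covariate the Emx2 difference was -0.28 (limma adjusted p = 0.479). Among the low mice alone, a choice made after the data were seen, a single control mouse stood against 3 exposed mice, and the differences are given as values only. They were -0.27 for Emx2, 0.06 for Ebf1 (-0.29 with all mice) and -0.42 for Ebf2 (-0.07 with all mice), on the log2 scale. Over all 8 mice, on deviations from the group means, Emx2 had r = 0.78 with the vomeronasal receptor genes and Kdm1a had r = 0.83. Emx2 had r = 0.80 with the 5 cycling cell markers (exact permutation p = 0.00521, adjusted 0.2605). That r was 0.23 without the 2 mice farthest from the median, so it rested on those mice. In the Kir2.1 experiment Emx2 had r = -0.14 with the cycling cell markers (exact permutation p = 0.77778, n = 6) and r = 0.12 with vomeronasal receptor genes. Those receptor genes were not among the marker relations tested below. The part of vomeronasal tissue in the Emx2 difference was not tested further.

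Emx2 shares its locus with a transcript on the opposite strand, Emx2os, which was measured at 516 to 742 in the controls and 421 to 681 in the Kir2.1 mice, and at 109 to 185 in the PEA controls and 123 to 156 in the exposed mice. The Kir2.1 libraries did not keep strand, so reads from the overlap of both genes cannot be told apart there. The same limit holds for Lhx2, Ldb1, Ebf1, Ebf2, Ebf3, Lbr, Kdm1a and Atf5, which also overlap annotated genes of the opposite strand (Gm27197, Pprc1, Gm12158, Gm6878, Gm45278, Dnah14, Luzp1 and Nup62 among them). Lbr and Kdm1a each overlap a small gene of the same strand as well.

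The promoter windows of the 3 regulators with the smallest p in the PEA experiment, Emx2, Ldb1 and Lhx2, are shown as sequence. Whether these sequences drive the genes was not tested. Each runs from 250 bases before to 50 bases after an annotated start, 5′ to 3′ on the strand of the gene, from RefSeq on GRCm38.p6. Of several starts for Ldb1 and Lhx2 the outermost is given. These RefSeq starts differ from the GENCODE gene positions given above for Emx2 and Ldb1. By those positions the Emx2 window lies inside the gene, and the Ldb1 window lies wholly upstream of it. The windows lie at chr19:59458440-59458739 (plus strand), chr19:46045262-46045561 (minus strand) and chr2:38339031-38339330 (plus strand), and capitals mark the letters TAATTA.
Emx2: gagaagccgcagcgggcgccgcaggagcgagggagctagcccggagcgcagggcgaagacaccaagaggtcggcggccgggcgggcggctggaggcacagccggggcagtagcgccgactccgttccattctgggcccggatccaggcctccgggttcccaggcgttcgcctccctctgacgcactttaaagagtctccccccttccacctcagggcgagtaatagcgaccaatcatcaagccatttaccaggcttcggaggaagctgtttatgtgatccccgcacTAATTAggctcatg
Ldb1: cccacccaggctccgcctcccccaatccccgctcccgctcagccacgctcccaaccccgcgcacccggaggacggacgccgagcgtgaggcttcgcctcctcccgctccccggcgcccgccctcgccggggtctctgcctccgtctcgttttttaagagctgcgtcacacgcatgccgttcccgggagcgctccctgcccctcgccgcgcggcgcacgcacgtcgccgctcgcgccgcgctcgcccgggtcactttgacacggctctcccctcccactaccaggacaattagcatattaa
Lhx2: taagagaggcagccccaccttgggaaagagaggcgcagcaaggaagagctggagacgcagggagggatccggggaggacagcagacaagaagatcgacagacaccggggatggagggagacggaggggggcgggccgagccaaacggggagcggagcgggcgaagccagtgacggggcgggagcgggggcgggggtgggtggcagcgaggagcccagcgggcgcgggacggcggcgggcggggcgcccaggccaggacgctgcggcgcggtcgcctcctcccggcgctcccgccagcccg

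These windows are rich in G and C, at 64.3% for Emx2, 71.3% for Ldb1 and 74.7% for Lhx2. Over 14 windows that the table held for 9 regulators, Ebf2 being the gene without one, the median was 67.7%, beside 52.7% over all 32851 promoters and 35.0% over 944 promoters of OR genes. The homeodomain letters TAATTA, which read the same on both strands, occurred in 1 of the 14 windows, beginning 36 bases after the RefSeq start of Emx2. They occurred in 5.29% of all promoters and in 176 or 18.6% of the OR promoters. The Ebf letters TCCCNNGGGA, also equal on both strands, occurred in 0 of the 14 windows, in 0.904% of all promoters and in 0.53% of the OR promoters. A match is a match of letters only, and its absence says only that these letters are not in the window.

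Lbr (ENSMUSG00000004880, chromosome 1, 181815335 to 181843046, minus strand, 14 exons) encodes the lamin B receptor, which ties heterochromatin to the inner nuclear membrane in most cells. It was the most variable regulator in the Kir2.1 experiment, with 2334, 2721 and 1410 in the controls and 1449, 1945 and 2787 in the Kir2.1 mice. Both groups spanned nearly the same range, and the log2 fold change was -0.06 with an SE of 0.30 (interval -0.77 to 0.64, limma adjusted p = 0.970). Lbr in the PEA experiment had 1191, 670, 844 and 938 in the controls and 805, 829, 1031 and 847 in the exposed mice, so the controls enclosed every exposed mouse (difference -0.03 on the log2 scale with an SE of 0.17, limma adjusted p = 0.955).

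Kdm1a (ENSMUSG00000036940, chromosome 4, 136550540 to 136602723, minus strand, 20 exons), the histone demethylase of OR activation, had narrow intervals in both experiments. Its counts were 5559, 6285 and 5287 in the controls and 5219, 5429 and 5895 in the Kir2.1 mice (difference -0.05 on the log2 scale, SE 0.09, interval -0.25 to 0.16, limma adjusted p = 0.906). The PEA controls had 1950, 1938, 2018 and 1791 and the exposed mice 1953, 1818, 1716 and 1689 (difference -0.10 on the log2 scale, SE 0.09, interval -0.30 to 0.09, limma adjusted p = 0.625). The groups overlapped in both, and a fall of more than 0.30 on the log2 scale lay outside either interval.

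Atf5 (ENSMUSG00000038539, chromosome 7, 44812256 to 44816658, minus strand, 3 exons) is the leucine zipper factor through which OR protein in the endoplasmic reticulum signals to the nucleus. It had 54402, 57833 and 54424 in the controls and 45448, 45831 and 56824 in the Kir2.1 mice. Kir2.1 mice 1 and 2 lay under every control and mouse 3 between the controls, for a log2 fold change of -0.18 (SE 0.10, interval -0.42 to 0.07, limma adjusted p = 0.615). The PEA controls had 1734, 2167, 1630 and 2283 and the exposed mice 1716, 2001, 1640 and 1681. The exposed mice all lay inside the range of the controls, and the log2 fold change was -0.14 (SE 0.13, interval -0.42 to 0.14, limma adjusted p = 0.647).

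**Figure D2:**
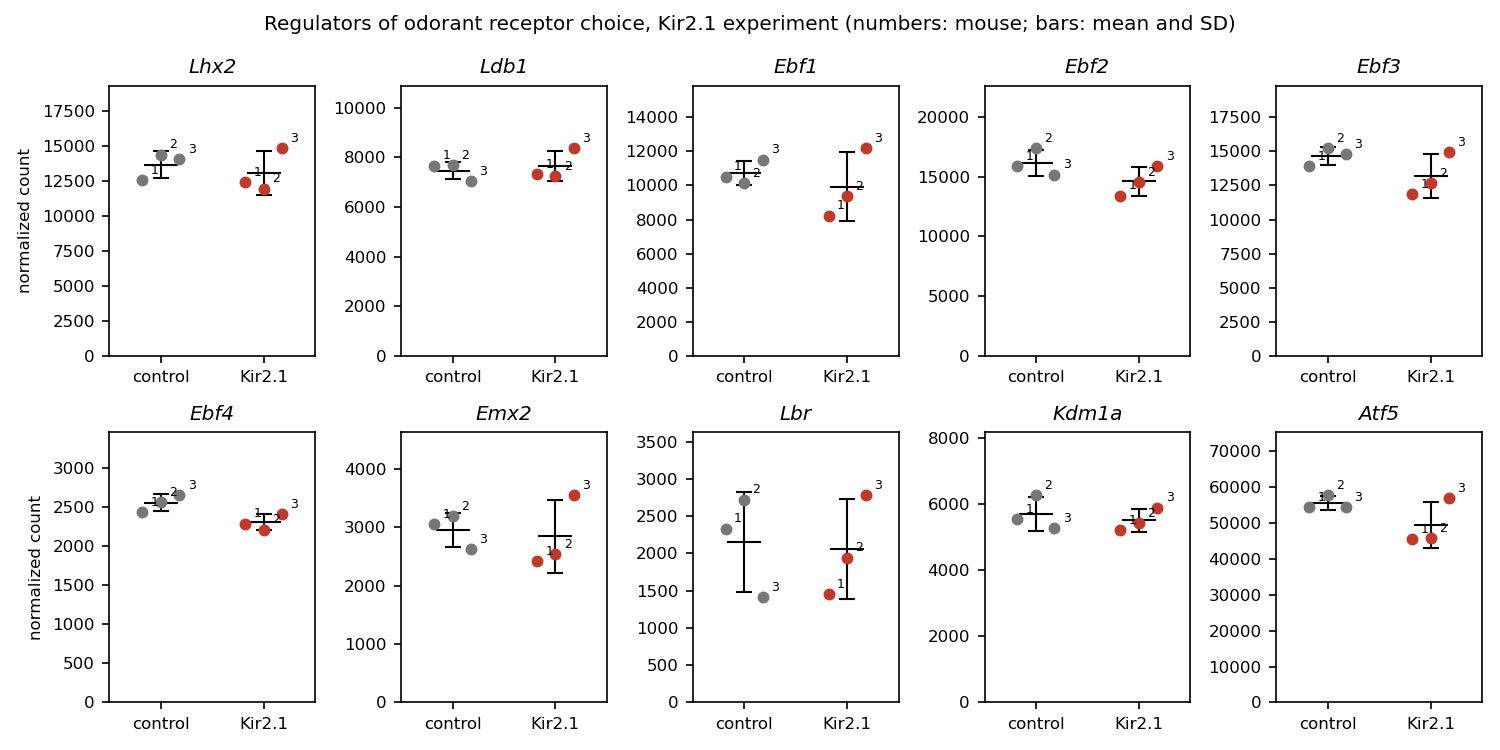
Normalized counts (y axis, from 0) of the 10 regulators in 3 control mice (grey) and 3 Kir2.1 mice (red), each point a mouse with its number, and bars for the mean and SD. Kir2.1 mouse 3 is the highest of its group in all 10 panels, and Ebf4 is the panel in which the groups do not overlap.

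A single Kir2.1 mouse, mouse 3, had the highest count of its group for 10 of 10 regulators, while it was the highest for 35.2% of all genes tested. Control mouse 2 was the highest of its group for 8 of 10, against 32.4% of all genes. Leaving out a mouse that is the highest of its group for every regulator must lower every fold change, so the direction of that shift carries no information. Without Kir2.1 mouse 3 the log2 fold changes of all 10 regulators were below 0, and none was called. Among them were Atf5 at -0.28 (limma adjusted p = 0.227), Ebf1 at -0.29 (adjusted p = 0.319) and Ebf3 at -0.26 (adjusted p = 0.279). Without control mouse 1, the mouse high in vomeronasal receptor RNA, 2 regulators were above 0 and none was called. With all mice 9 of 10 were below 0, against 48.8% of all genes tested. The regulators moved with each other over the 6 mice, with a positive correlation of the deviations from the group means in 44 of 45 pairs and a median r of 0.73 as a description, so their signs are not separate observations. Of the PEA fold changes 7 of 10 were below 0, against 53.5% of all genes tested, and 28 of 45 pairs were positive, with a median r of 0.26.

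**Figure D3:**
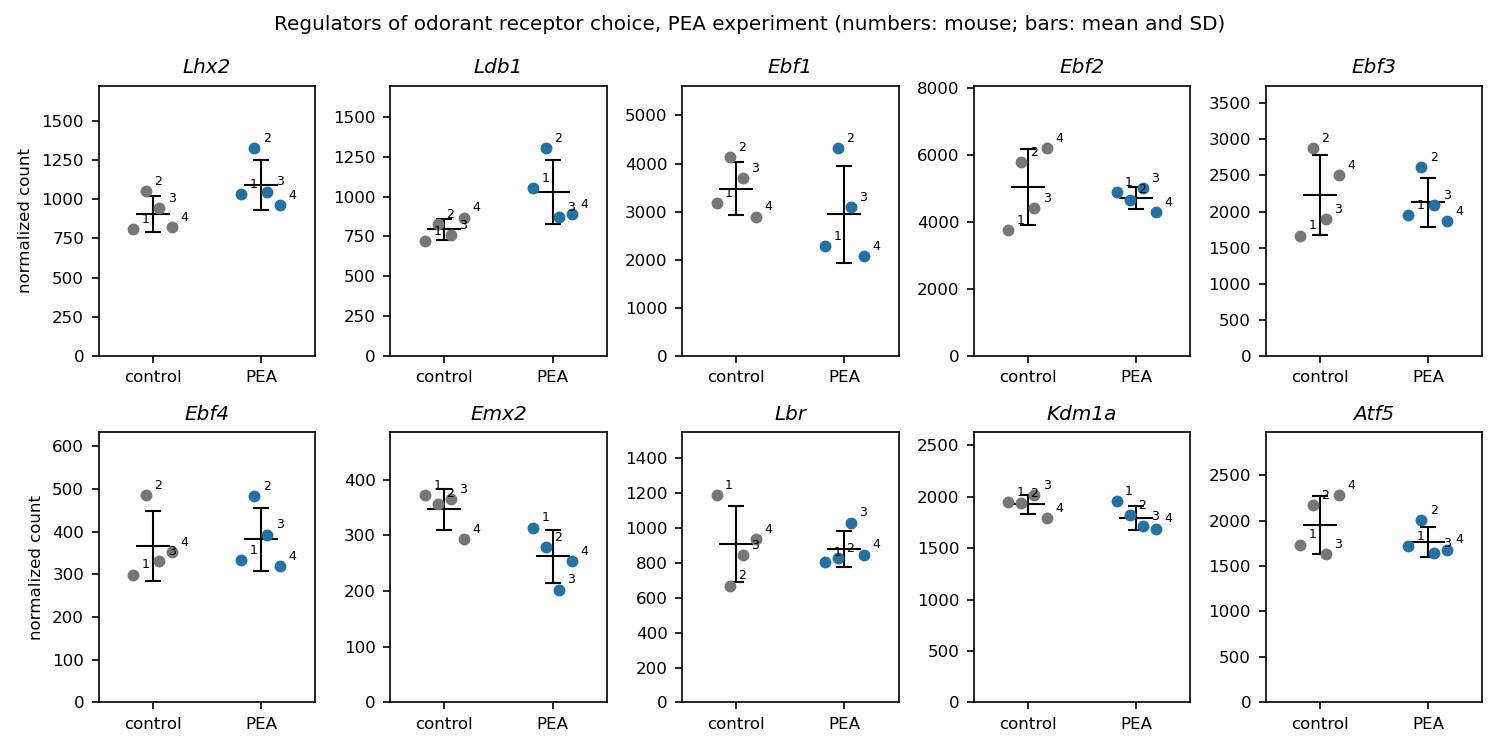
Normalized counts (y axis, from 0) of the 10 regulators in 4 PEA control mice (grey) and 4 PEA-exposed mice (blue), each point a mouse with its number, and bars for the mean and SD. Ldb1 is the panel in which all exposed mice lie above all controls, and the exposed mice lie at the lower end for Emx2.

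Beside these regulators, the OR genes and the markers of mature OSNs were lower in the Kir2.1 mice. The counts summed over 1117 OR genes were 77044, 84200 and 78151 in the controls and 60302, 61818 and 54826 in the Kir2.1 mice, without overlap (exact permutation p = 0.1, the smallest possible). Of 10 mature OSN markers 0 were higher, 1 was called, and the median log2 fold change was -0.40, with summed counts of 133835 to 148726 in the controls and 98674 to 111379 in the Kir2.1 mice. Over the 10 regulators the median was -0.10, and the low ends of their intervals ran from -0.16 for Ldb1 to -0.77 for Lbr. Immature OSN markers had 3 of 6 higher and a median of -0.01, and 7 of 7 mesenchyme and bone markers and 4 of 4 erythroid markers tested were higher, with medians of 0.55 and 0.86. The part of cell makeup in the values of the regulators was not tested. The OR sum of the PEA experiment was 35255, 44054, 37051 and 57094 in the controls and 41458, 35330, 39412 and 37862 in the exposed mice (exact permutation p = 0.5429), and 5 of 10 mature OSN markers were higher.

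The regulators were also compared with cell type markers from mouse to mouse, on deviations from the group means, so that the treatment itself did not enter. Over 250 such relations none passed after Benjamini-Hochberg adjustment, and the smallest adjusted p was 0.2605 (exact permutation of mice within their groups). Before adjustment 30 of the 250 had a p of r under 0.05. The relations described here were picked from the 250 after their values were seen. The highest r of the PEA experiment was that of Atf5 with the 6 markers of immature OSNs. Its r was 0.99 (exact permutation p = 0.00694, adjusted 0.28375, n = 8) and rho 0.90 (exact permutation p = 0.02257, adjusted 0.34725), and r was 0.99 without the 2 mice farthest from the median. With the group means left in, r was 0.76. In the Kir2.1 experiment the same relation had r = 0.84 and rho = 0.83 (exact permutation p = 0.25 and 0.22222, n = 6), and r was -0.06 without the 2 farthest mice, so it rested on those mice. Ebf1 followed the same markers in the Kir2.1 experiment, with r = 0.998 and rho = 0.94 (exact permutation p = 0.02778 for each, the smallest possible with 3 mice in each group, adjusted 0.28375 and 0.34725, n = 6), and r was 0.99 without the 2 farthest mice. The PEA experiment did not show this relation, with r = 0.31 and rho = 0.31 (exact permutation p = 0.40278 and 0.46007, n = 8). There r was -0.59 without the 2 farthest mice. Ebf3 went against the 4 markers of respiratory ciliated cells in the PEA experiment, with r = -0.97 (exact permutation p = 0.00347, adjusted 0.2605, n = 8), rho = -0.93 (exact permutation p = 0.01389, adjusted 0.34725) and r = -0.96 without the 2 farthest mice. In the Kir2.1 experiment this relation had r = -0.48 (exact permutation p = 0.63889, n = 6), and -0.24 without the 2 farthest mice. Ebf4 followed the 10 mature OSN markers in the PEA experiment, with r = 0.95 (exact permutation p = 0.00347, adjusted 0.2605, n = 8), and 0.82 without the 2 farthest mice. Its r in the Kir2.1 experiment was 0.85 (exact permutation p = 0.08333, adjusted 0.42515, n = 6), and 0.98 without the 2 farthest mice.

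**Figure D4:**
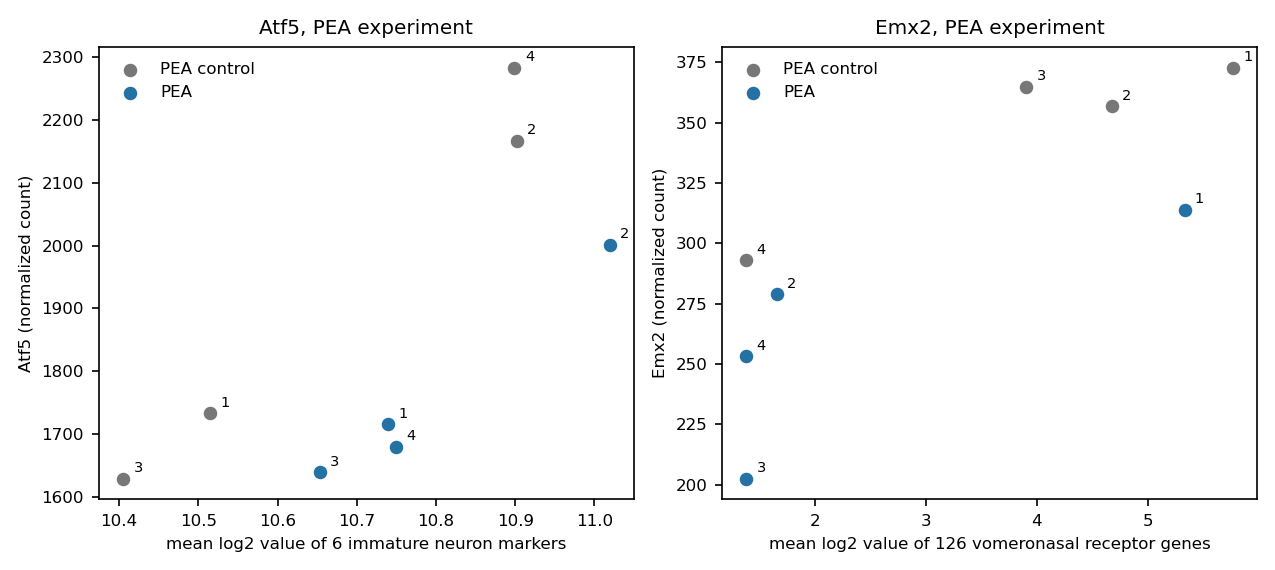
Left, normalized count of Atf5 against the mean log2 value of 6 immature OSN markers, and right, normalized count of Emx2 against the mean log2 value of 126 vomeronasal receptor genes, each point a mouse of the PEA experiment with its number (grey control, blue exposed). Within each group the mice with more immature OSN marker RNA tend to have more Atf5, and the 4 mice with a vomeronasal mean under 3 have the 4 lowest Emx2 counts. The y axes do not start at 0.

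The genes whose deviations followed a regulator most closely differed between the experiments. Over 6 mice of the Kir2.1 experiment and 15687 genes, Lhx2 was followed most closely by Vps72 (r = 0.996) and Them6 (0.994), and Atf5 by Got1 (0.998) and Crmp1 (0.998). Over 8 mice of the PEA experiment and 13221 genes, Lhx2 was followed by Sox6 (r = 0.97) and Hip1 (0.95), and Atf5 by Gpc1 (0.99) and Ccdc28a (0.99). These are the highest of many values over few mice and are given as a description.

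The regulators stood at very different levels in the control epithelia. Per kilobase of exon the Kir2.1 controls had a mean of 27874 for Atf5, followed by Lhx2 at 3115, Ebf2 at 2330, Ldb1 at 1621, Ebf3 at 1588, Kdm1a at 1103, Ebf1 at 1100, Emx2 at 985, Ebf4 at 788 and Lbr at 453. The ranges of Ldb1 and Ebf3, of Kdm1a and Ebf1 and of Ebf1 and Emx2 overlapped, so their order is not settled, and the other neighbours did not overlap. The order also depends on the length used. Per kilobase of the longest coding transcript the means of these controls were 3101 for Ebf2, 2934 for Ebf3 and 2382 for Ldb1. Per kilobase the PEA controls had Atf5 at 980, Ebf2 at 729, Kdm1a at 372, Ebf1 at 356, Ebf3 at 242, Lhx2 at 207, Lbr at 191, Ldb1 at 173, Emx2 at 116 and Ebf4 at 113. There the ranges of all neighbours overlapped except those of Ebf2 and Kdm1a and of Ldb1 and Emx2. Atf5 was first in both orders, while Lhx2 stood second in the Kir2.1 controls and sixth in the PEA controls.

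The same contrast was seen when the counts of the control mice were set against their own totals. Atf5 made up 1652 ± 63.8 (SD, n = 3) per 1000000 normalized counts in the Kir2.1 controls and 163 ± 31.7 (n = 4) in the PEA controls, a ratio of 10.1 that lay above 98.6% of 16705 genes tested in both. Lhx2 had 407 ± 24.0 and 75.7 ± 11.7, a ratio of 5.37, and the ratio was 3.35 for Ldb1, 3.05 for Emx2, 2.47 for Ebf4 and 2.33 for Ebf3. It was 1.14 for Ebf2, 1.10 for Ebf1, 1.06 for Kdm1a and 0.852 for Lbr, near the median of 1.04 over all genes. The longest coding transcripts of Atf5, Lhx2, Ldb1 and Ebf4 held 57.9% to 62.2% G and C, those of Emx2, Kdm1a and Ebf3 49.4% to 52.2%, and those of Ebf2, Ebf1 and Lbr 43.1% to 45.0%. The experiments differed in RNA selection, read length, strand, stated strain and normalization, which cannot be told apart here, and no test was made across them.

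**Figure D5:**
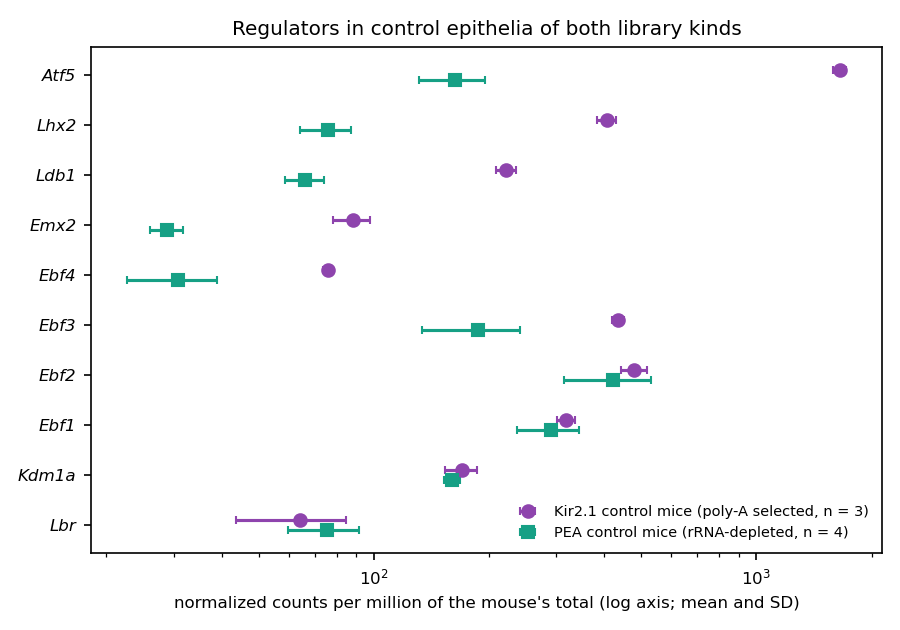
Normalized counts per 1000000 of the mouse's total (x axis, log scale) for each regulator in the control mice of the Kir2.1 experiment (purple circles, poly-A selected RNA, n = 3) and of the PEA experiment (green squares, rRNA-depleted RNA, n = 4), as mean and SD. Atf5, Lhx2, Ldb1 and Emx2 are farthest apart, and Ebf1, Ebf2, Kdm1a and Lbr overlap.

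Partner genes of the same pathway, listed with earlier results of these data known, gave no call in either experiment. Of 49 tested in the Kir2.1 experiment 0 were called by limma, 1 was higher and 5 lower at an unadjusted p under 0.05, where 11.1% of all genes tested lay, and the median log2 fold change was -0.01. Of 48 tested in the PEA experiment 0 were called, 7 were higher and 4 lower at that level, where 15% of all genes tested lay, and the median was -0.03. By list, the numbers with an unadjusted p under 0.05 in the Kir2.1 experiment were 1 of 15 heterochromatin and nuclear envelope genes, 4 of 14 genes of the Kdm1a complex and receptor feedback, and 1 of 20 cofactors and other transcription factors. In the PEA experiment they were 6 of 15, 2 of 14 and 3 of 19.

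The smallest p in the Kir2.1 experiment belonged to Rtp2, Adcy3 and Rtp1, all from the list of receptor feedback genes. Rtp2, a chaperone that carries ORs to the cell surface, was at 8132 ± 264 (SD, n = 3) in the controls against 5940 ± 286 (difference -0.45 on the log2 scale, limma adjusted p = 0.0531), and passed the threshold with robust moderation or array weights. Rtp1, its paralog, was at 13911 ± 414 and 10658 ± 464 (-0.38, limma adjusted p = 0.0846). Adcy3, the adenylyl cyclase of odor transduction, whose appearance ends the Kdm1a step, was at 17407 ± 1825 and 11912 ± 63.0 (-0.54, limma adjusted p = 0.0720). Adcy3 and Rtp1 also stood on the list of mature OSN markers, whose median was -0.40.

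In the PEA experiment the smallest p belonged to Lmo1, Lmna and Ddit3. Lmo1, a LIM-only protein that binds Ldb1, was at 49.5 ± 9.87 (SD, n = 4) in the controls and 91.9 ± 21.2 in the exposed mice (difference 0.87 on the log2 scale, limma adjusted p = 0.138), without overlap. Lmna, which encodes lamins A and C of the nuclear envelope, was at 229 ± 48.3 and 360 ± 77.9 (0.65, limma adjusted p = 0.172). Ddit3, a factor of the unfolded protein response also called Chop, was at 175 ± 19.5 and 243 ± 33.6 (0.47, limma adjusted p = 0.172). None of these passed the adjusted threshold.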

How the data were processed

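RNA of whole olfactory epithelia was sequenced in 14 mice. Libraries of the Kir2.1 experiment held poly-A RNA without strand and gave short single-end reads, while those of the PEA experiment held RNA depleted of rRNA, kept strand and gave longer reads. The authors estimated transcript abundance with Salmon 1.3.0 (submitters' processing notes), with a setting for reverse-stranded reads in both experiments, summed it per gene, and scaled it with DESeq2 1.30.0. The deposited values are thus a normalized signal per gene and not whole reads: 28.0% to 35.9% (Kir2.1) and 9.06% to 13.4% (PEA) of values under 50 were whole multiples of a read (tolerance 0.02), so no count model was run. Depth was estimated from the most frequent value above 0, and precision rests on the mice.

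Groups came from the sample labels. Genes averaging 10 or more in an experiment were tested on log2(value + 1) with limma 3.58.1 in R 4.3.3 (mean-variance trend, Benjamini-Hochberg adjustment, threshold 0.05), each experiment alone. The added 1 understates changes of low genes. Epithelia were taken from single pups, and the study's methods call the Kir2.1 controls littermates. The sources used here do not say which pups shared a litter or how many litters there were, so p-values measure the spread between these mice. For early odor exposure the study's methods describe a vial in the home cage that held mother and pups. Pups of a cage thus shared the PEA exposure, and the p-values do not cover the spread between cages. Single values were tested by exact permutation over mice, two-sided. Correlations used deviations from group means, with mice permuted within groups only. They were first computed with free permutation over all mice, which gives p-values that are too small for centred values, and those were replaced. Other steps used Python 3.11.15 (scipy 1.17.1, pandas 2.3.3, numpy 2.4.6, matplotlib 3.10.9). Exon lengths and positions came from GENCODE on GRCm38, and promoters from RefSeq. The limma step was tested on simulated data.

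The regulators, partner and marker lists were chosen with earlier results of these data known. Named genes were the 10 regulators and, for partner lists without a call, the 3 genes with the smallest p per experiment. Genes most alike to Lhx2 and Atf5 were chosen for naming after their values were seen. Alternatives were other pseudocounts (0.5 and 5), filters (none and a mean of 50), no trend, robust moderation, median centring, array weights, the replicate block, quantile normalization, Xist and vomeronasal covariates, and each mouse left out. Same-numbered mice were not shown to be paired.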

Additional observations from a re-analysis of the deposited data

Results flagged for a closer look

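No regulator had a mouse that stood apart by Dixon's test at the 95% level in the 20 groups of 4 PEA or PEA control mice tested, where chance would mark about 1 in 20. Groups of 3 mice were not tested in this way.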

How the results depend on the processing

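No regulator was called under any of 18 alternatives in the Kir2.1 experiment or 20 in the PEA experiment, and the smallest adjusted p by limma was 0.227 (Atf5 without Kir2.1 mouse 3) and 0.119 (Emx2). The difference of Emx2 in the PEA experiment lay between -0.51 and -0.28 on the log2 scale, of Ldb1 between 0.24 and 0.43 and of Lhx2 between 0.17 and 0.34. The sign was the same as with the main settings in 171 of 180 Kir2.1 values and 187 of 200 PEA values. The signs that turned, with causes not tested, were those of Ldb1 (-0.0063, median centring) and Lbr (0.021, vomeronasal covariate) in the Kir2.1 experiment, and in the PEA experiment those of Ebf3 (0.038) and Lbr (0.0125) under quantile normalization, Lbr with array weights (0.0689) and the Xist covariate (0.0001), and Ebf1 (0.0629) among the mice low in vomeronasal genes. That last alternative was chosen after seeing the data, sets a single control against 3 mice, and is not counted above. With each mouse left out, the Kir2.1 ranges were Ldb1 -0.0334 to 0.0703, Lbr -0.342 to 0.165, Emx2 -0.245 to 0.0312 and Kdm1a -0.102 to 0.0225, and the PEA ranges Ebf2 -0.202 to 0.0387, Ebf3 -0.177 to 0.0853, Ebf4 -0.056 to 0.206 and Lbr -0.166 to 0.111.

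The regulators with a mean above control numbered 1 in the Kir2.1 experiment, 0 with median centring, 2 with the vomeronasal covariate and 0 to 3 with each mouse left out. In the PEA experiment they numbered 3, 5 with quantile normalization and 2 to 5 with each mouse left out. Calls over all genes in the Kir2.1 experiment (70) numbered 20 without the trend, 22 with the vomeronasal covariate, 44 with the Xist covariate and 23 to 44 with each mouse left out. Those in the PEA experiment (31) numbered 52 without a filter, 117 with array weights, 20 with the vomeronasal covariate, 49 among the low vomeronasal mice and 19 to 43 with each mouse left out. Partner genes called in the Kir2.1 experiment (0) numbered 1 with robust moderation and 1 with array weights (Rtp2 both times, adjusted p = 0.0478 and 0.0413 by limma), and 0 to 1 with each mouse left out (Nfix without control mouse 3, log2 fold change 0.96, adjusted p = 0.0488).

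Same-numbered mice did not deviate together (r of -0.13, -0.02 and 0.25 in the Kir2.1 experiment and -0.08, 0.00, -0.08 and 0.01 in the PEA experiment), and 2 of 6 and 0 of 8 mice correlated best with their own number. With the replicate block 9 genes were called in the Kir2.1 experiment and 23 in the PEA experiment, and 0 regulators in either. The fourth PEA pair shares a replicate number only, since the library name of that control carries another number. The intervals given for the regulators are unadjusted and show which changes were not excluded. Differences larger than those of the regulators were also not called, such as Lmo1 at 0.87 in the PEA experiment (limma adjusted p = 0.138).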
